A study of Drosophila melanogaster with 6 samples.

Results

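The genes described here encode proteins of the mitochondrial ribosome and were chosen by name, as every gene whose symbol is mRpL or mRpS followed by a number and at most 1 letter. The rule used no measured value. It found 72 of the 17807 genes in the table. Their symbols, from which the subunit is taken throughout, put 47 in the large subunit (mRpL) and 25 in the small subunit (mRpS). Of these, 71 reached a normalized count of 10 in 3 or more of the 6 libraries and entered the test. The remaining gene, mRpL53, was at 0 in every library. The gene mRpS5 was not analysed here.

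The libraries are poly(A)-selected RNA of body wall musculature from *Drosophila melanogaster* larvae at the wandering third-instar stage, when larvae leave the food before pupariation. The Mad knockdown group (3 libraries, Dmef2-Gal4>UAS-madRNAi) carried a hairpin against Mad, the transcription factor that takes the bone morphogenetic protein (BMP) signal into the nucleus. The control knockdown group (3 libraries, Dmef2-Gal4>UAS-mCherryRNAi) carried a hairpin against mCherry, a fluorescent marker protein without a gene of its own in flies. Both groups share Dmef2-Gal4, a driver that turns transgenes on in muscle, while the RNA came from lysates only enriched for muscle, each a pool of 6 to 10 larvae, so that it also holds RNA of cells without the hairpin. Each library is a separate sample in the labels. No other treatment is named, and no age beyond the larval stage.

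Mitochondria make the few proteins that their own DNA encodes on ribosomes of bacterial descent. The ribosomal RNAs come from mitochondrial DNA, but all the proteins of these ribosomes are encoded in the nucleus, made in the cytoplasm and imported. Some are homologues of bacterial ribosomal proteins, and others have no bacterial counterpart and were added during the evolution of mitochondria. The proteins these ribosomes make are core subunits of respiratory complexes and of the ATP synthase.

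Gene counts summed to between 109301864 and 127220949 per Mad knockdown library and between 96639921 and 124490149 per control knockdown library. The value of each gene is the authors' normalized count, a gene count divided by 1 size factor per library. Mad was 5015 ± 648 in Mad knockdown and 7400 ± 344 in control knockdown (SD, n = 3 each), or 67.8% of control, with an adjusted p of 0.0440 in limma. This call did not hold in edgeR (adjusted p 0.0516), without a trend (0.0981), with the replicate block (0.0787) or in 5 of the 6 fits that left out a library. The exact two-sided permutation test of the same 6 values gave 0.1, the smallest p that 3 libraries against 3 allow. The muscle markers were all present, and their summed count was 1198218 to 1800006 in Mad knockdown and 2504228 to 3558854 in control knockdown. Of the 10 muscle markers 9 had a lower estimate in Mad knockdown. For 8 the groups did not overlap, lower in Mad knockdown in each, against 13.0% of all genes tested. In limma 1, Tm2, passed the test, against 1.57% of all genes called lower. DESeq2 called 8 of the 10, against 9.69% of all genes, and edgeR 0, against 2.44%. In lysates of mixed tissue, fewer cells of a type and less RNA per cell cannot be told apart. The 7 fat body markers summed to 21845 to 42288 in Mad knockdown and 26534 to 42024 in control knockdown, and none passed the test. The summed markers of 3 other tissues lay apart between the groups, at 29.0 to 147 in Mad knockdown and 297 to 2573 in control knockdown for the salivary gland, and at 74116 to 82926 in Mad knockdown and 86033 to 121154 in control knockdown for haemocytes. For the testis, with 1 marker of 5 tested, they were at 94.3 to 139 in Mad knockdown and 79.3 to 90.5 in control knockdown. The 5 haemocyte markers differed in direction, with 2 estimates above 0 and 3 below, and none passed the test. The part of these differences in tissue markers in the values below was not tested.

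None of the 71 mitochondrial ribosomal protein genes passed limma's threshold of a Benjamini-Hochberg adjusted p under 0.05, and none passed in edgeR. DESeq2 called 2, mRpL39 and mRpS31. Among all 10348 genes tested, limma called 2.59%, with 1.02% higher and 1.57% lower in Mad knockdown, edgeR called 2.44%, and DESeq2 9.69%. The estimates of the 71 genes were small, with log2 fold changes (Mad knockdown over control knockdown) that ran from -0.32 to 0.45 and had a median of 0.04, against a median of 0.01 over all genes tested. The estimate was above 0 for 42 genes and below 0 for 29, or 59.2% above 0 against 51.1% of all genes. Over the alternative settings the median ran from -0.0041 to 0.098.

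At an unadjusted p under 0.05, limma passed 7 of the 71 genes, as did edgeR and DESeq2, against 19.0%, 19.2% and 20.0% of all genes. In limma 5 of them had estimates above 0 (mRpS31, mRpL36, mRpL11, mRpL30 and mRpL10), against 8.31% of all genes. The other 2, mRpL39 and mRpL33, had estimates below 0, against 10.7% of all genes. The 3 libraries of 1 group lay wholly outside those of the other for 10 genes, 8 higher in Mad knockdown and 2 lower. Over all genes tested this held for 24.6%, 11.6% higher and 13.0% lower, so the 8 higher genes lay near the background share and the 2 lower ones below it.

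**Figure D1:**
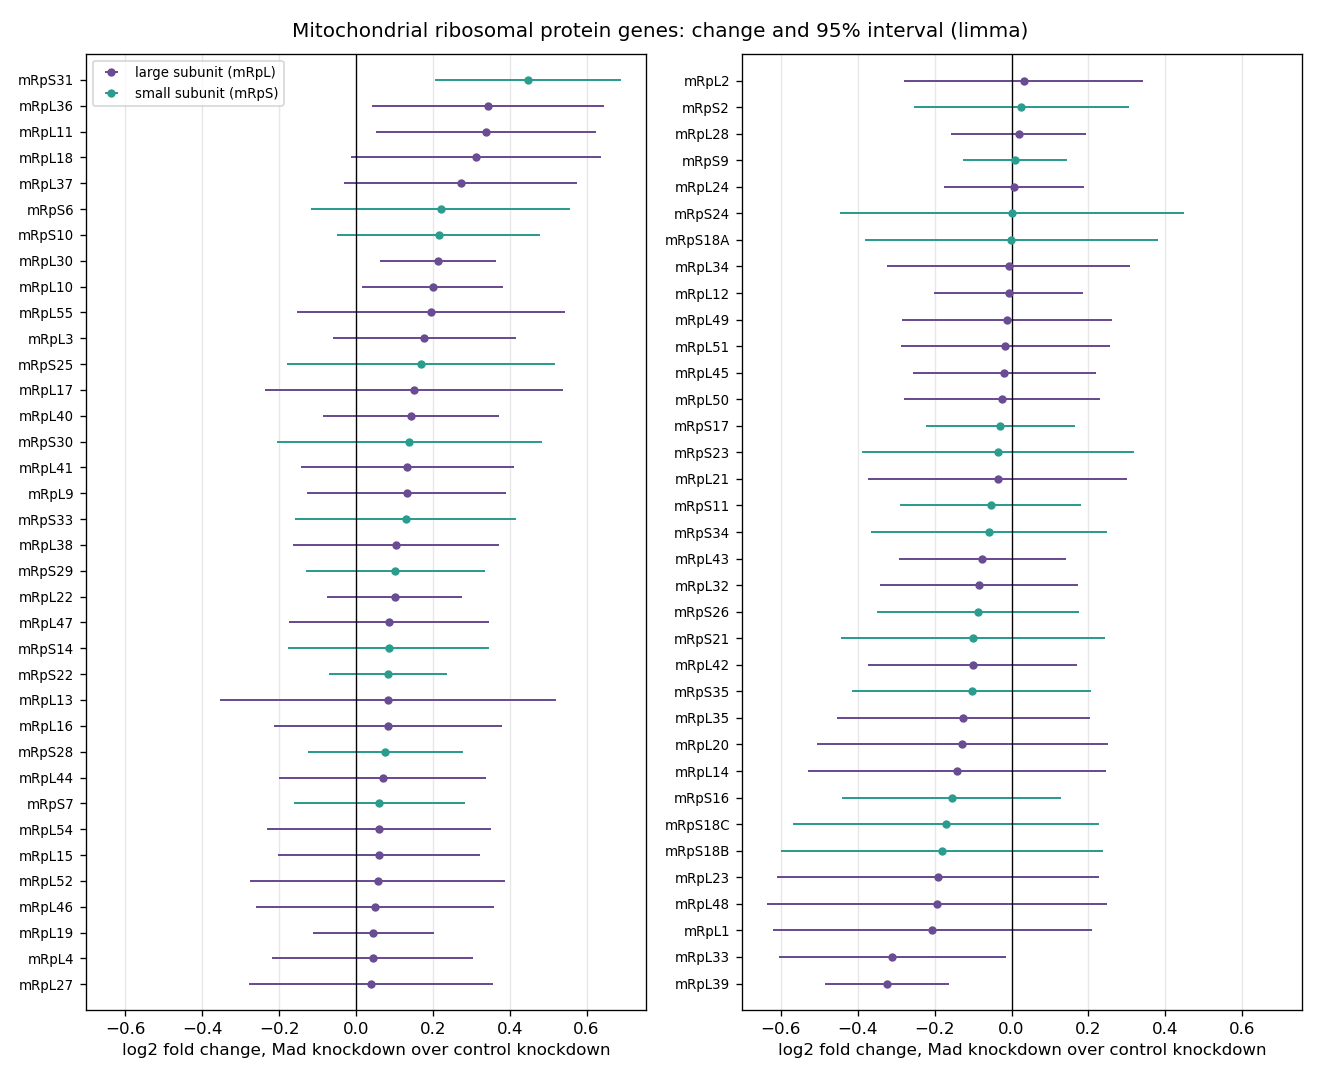
Log2 fold change of Mad knockdown over control knockdown (x axis) of the 71 tested genes, ordered by estimate down the left and then the right panel; points are limma estimates, bars their 95% intervals, and colours mark the subunit. Estimates run from 0.45 for mRpS31 to -0.32 for mRpL39, and the intervals of 7 genes leave out 0.

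The intervals give a range for the change of each gene under the main settings. They were set gene by gene, without adjustment for the number of genes, and do not bound all 71 changes jointly. The median half-width of the 95% interval was 0.28 on the log2 scale. All 71 intervals lay within a change of 0.75 in either direction, against 65.6% of all genes tested. Within a change of 0.5 lay 53 of the 71 intervals (74.6%), against 51.5% of all genes. Within 0.25 the order was reversed, with 7 intervals (9.86%) against 17.4% of all genes. The lowest bound of any of these genes was -0.64, that of mRpL48, and the highest 0.69, that of mRpS31. The within-group SD on the log2 scale had a median of 0.177 among the 24 genes of lowest count, 0.131 among the next 24 and 0.120 among the 23 of highest count.

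In the small subunit, mRpS31 had the largest estimate of all. It encodes a protein with no bacterial counterpart and lies at positions 16005193 to 16006599 of chromosome 3L (plus strand) in the BDGP6.54 annotation, from which all positions below are taken. It had normalized counts of 796, 671 and 716 in Mad knockdown and 499, 532 and 567 in control knockdown. Every Mad knockdown library lay above every control library. The means were 728 ± 63.2 in Mad knockdown and 533 ± 34.0 in control knockdown (SD, n = 3 each). This gave a log2 fold change of 0.45 (SE 0.101), whose adjusted p of 0.0746 in limma missed the threshold. It was 0.0681 in edgeR and 0.00891 in DESeq2. Over the alternative settings the log2 fold change stayed between 0.38 and 0.50, while the adjusted p ran from 0.00891 to 0.189.

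Other small-subunit genes had weaker estimates. mRpS6, whose bacterial homologue pairs with S18 on the platform, had normalized counts of 428, 376 and 421 in Mad knockdown and 294, 363 and 400.2 in control knockdown (log2 fold change 0.22, SE 0.141, adjusted p 0.467 in limma), and the groups overlapped. mRpS10, a homologue of bacterial S10 named after its values were seen, had 299.9, 322 and 342 in Mad knockdown and 259, 289 and 282 in control knockdown. Its groups did not overlap, and its adjusted p was 0.358 in limma. mRpS29 encodes the homologue of human DAP3, a GTP-binding protein named for a role in cell death. Its normalized counts were 1345, 1261 and 1164 in Mad knockdown and 1184, 1273 and 1059 in control knockdown, which overlapped (log2 fold change 0.10, SE 0.097).

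The bacterial protein S18 has 3 relatives encoded in the fly genome, and in human mitochondria the protein of the mRpS18A type is built into the large subunit. mRpS18A had normalized counts of 429.7, 310.1 and 417 in Mad knockdown and 401, 339 and 408 in control knockdown, with means of 386 ± 65.6 in Mad knockdown and 383 ± 38.2 in control knockdown (SD, n = 3 each). mRpS18B had 481, 337 and 444 in Mad knockdown and 397, 527 and 501 in control knockdown. mRpS18C had 172, 161 and 163 in Mad knockdown and 167, 167 and 229.7 in control knockdown. The estimates for mRpS18B and mRpS18C were -0.18 (SE 0.175) and -0.17 (SE 0.166), both with an adjusted p of 0.645 in limma, and the groups of all 3 genes overlapped.

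In the large subunit the lowest estimate was that of mRpL39, which encodes a protein with no bacterial counterpart, at positions 14997981 to 14999666 of chromosome 3L (minus strand). It had normalized counts of 1312, 1251 and 1369 in Mad knockdown and 1685, 1593 and 1643 in control knockdown. Every Mad knockdown library lay below every control library. The means were 1311 ± 59.5 in Mad knockdown and 1641 ± 45.9 in control knockdown (SD, n = 3 each). This gave a log2 fold change of -0.32 (SE 0.068), whose adjusted p of 0.0625 in limma missed the threshold. It was 0.0682 in edgeR and 0.00588 in DESeq2, and ran from 0.00588 to 0.188 over the alternatives.

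mRpL33 encodes a homologue of a small bacterial large-subunit protein and lies at positions 4321764 to 4322231 of the X chromosome (minus strand). It had 369.9, 472 and 471 in Mad knockdown and 547, 516 and 556 in control knockdown, with the Mad knockdown libraries all lower (log2 fold change -0.31, SE 0.123, adjusted p 0.243 in limma). mRpL36, another small protein, zinc-binding in bacteria, lies at positions 8124584 to 8125132 of chromosome 3L (minus strand). It had 229, 248 and 264 in Mad knockdown and 190.4, 181 and 211 in control knockdown, with the Mad knockdown libraries all higher (log2 fold change 0.34, SE 0.126, adjusted p 0.214 in limma).

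The proteins of the stalk and its base draw translation factors to the ribosome. mRpL11 (chromosome 3R, 14511838 to 14512691, plus strand), at the base of the stalk, had 411, 376 and 433 in Mad knockdown and 292, 316 and 358 in control knockdown, with no overlap (log2 fold change 0.34, SE 0.120, adjusted p 0.199 in limma). mRpL10 (chromosome 2L, 203779 to 204782, plus strand), which anchors the stalk, had 1100.4, 1081 and 1024 in Mad knockdown and 874, 961 and 956 in control knockdown, also with no overlap (log2 fold change 0.20, SE 0.077, adjusted p 0.228). mRpL12 forms the stalk itself and is needed in flies for growth driven by cyclin D and its kinase Cdk4. It had 672, 646 and 703 in Mad knockdown and 653, 671 and 706 in control knockdown, with a log2 fold change of -0.01 and a 95% interval from -0.20 to 0.19. Whether the 3 genes differ from each other in response was not tested.

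**Figure D2:**
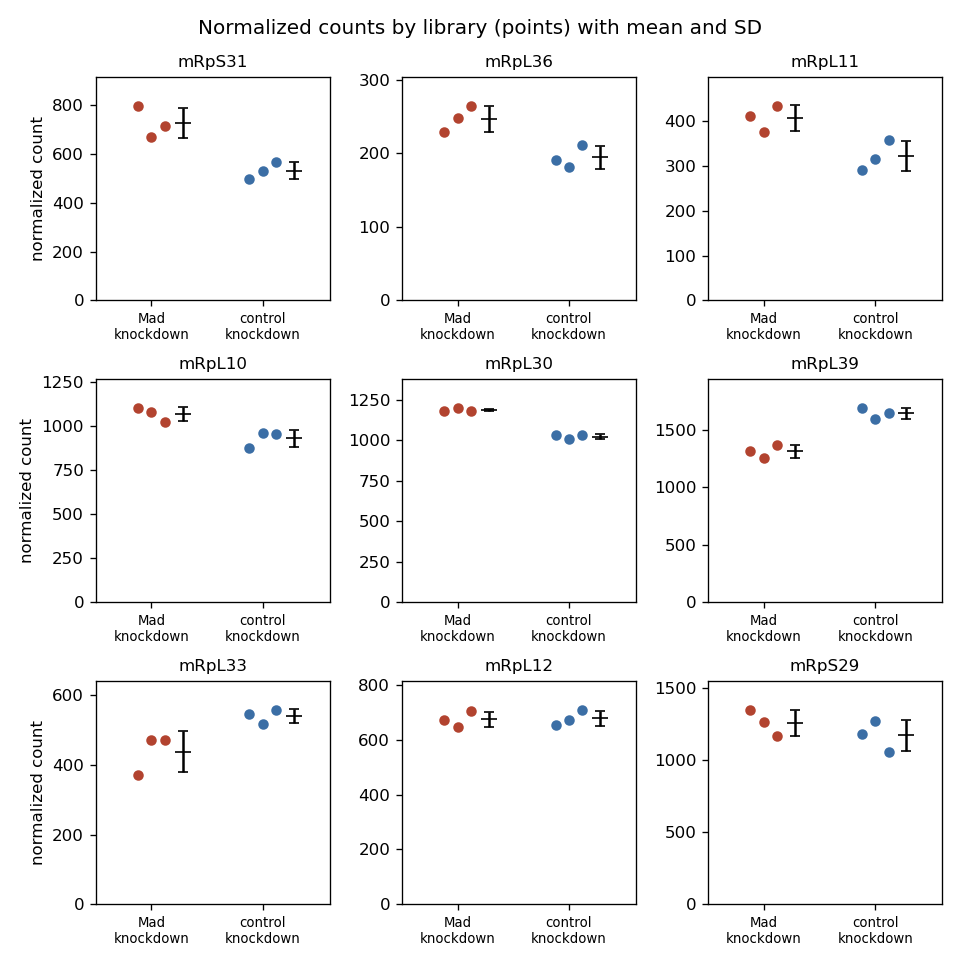
Normalized counts (y axes, from 0) of 9 genes in the 3 Mad knockdown and 3 control knockdown libraries; points are libraries and bars the mean ± SD of each group. The libraries separate for the first 7 genes, of which mRpL39 and mRpL33 are lower in Mad knockdown, and overlap for mRpL12 and mRpS29.

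Other proteins surround the exit tunnel, through which the new protein leaves. mRpL22, whose bacterial homologue lines the tunnel, had 1724, 1559 and 1587 in Mad knockdown and 1464, 1595 and 1480.3 in control knockdown (log2 fold change 0.10, SE 0.073). mRpL23, at the tunnel's rim, had 323, 246 and 210.5 in Mad knockdown and 303, 303 and 272 in control knockdown (log2 fold change -0.19, SE 0.175). mRpL45, which in mammals holds the tunnel exit near the inner membrane, had 1196, 1241 and 1170.1 in Mad knockdown and 1098, 1187 and 1386 in control knockdown (log2 fold change -0.02, SE 0.100). The groups of these 3 genes overlapped.

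Among the other large-subunit genes, mRpL18 and mRpL37 had estimates of 0.31 (SE 0.136) and 0.27 (SE 0.127), with adjusted p of 0.284 and 0.315 in limma. mRpL18, a homologue of the bacterial 5S RNA-binding protein, had 531, 445 and 536 in Mad knockdown and 347, 433 and 440.3 in control knockdown, without overlap. mRpL37, with no bacterial counterpart, had 965, 904 and 1017 in Mad knockdown and 675, 807 and 923 in control knockdown, where control replicate 1 was the lowest and the groups overlapped. mRpL1, of the mobile stalk beside the exit site of transfer RNA, had 532, 378 and 588 in Mad knockdown and 544, 545 and 613 in control knockdown (log2 fold change -0.21, SE 0.174). mRpL48 had 236, 158 and 239 in Mad knockdown and 242, 234 and 236 in control knockdown (log2 fold change -0.19, SE 0.185). In mRpL1 and mRpL48, Mad knockdown replicate 2 was the lowest library and the groups otherwise nearly coincided. Without that replicate the log2 fold change of mRpL48 was 0.00.

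mRpL44, whose product has a fold like that of RNase III, had 664, 549 and 651 in Mad knockdown and 576, 553 and 644 in control knockdown (log2 fold change 0.07, SE 0.113). mRpL30 (X chromosome, 4647871 to 4648646, plus strand), named after its values were seen, had the tightest groups of the genes with an unadjusted p under 0.05, with 1183, 1196 and 1181 in Mad knockdown and 1029, 1006 and 1033 in control knockdown. Its means were 1187 ± 8.25 in Mad knockdown and 1022 ± 14.5 in control knockdown (SD, n = 3 each), and the log2 fold change of 0.21 (SE 0.063) had an adjusted p of 0.137 in limma. mRpL41, also named after its values were seen, completed the 8 genes whose Mad knockdown libraries were all higher, with 267, 269 and 316 in Mad knockdown and 254, 262 and 259 in control knockdown (log2 fold change 0.13, adjusted p 0.599).

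By subunit as named in the symbol, of the 46 large-subunit genes 28 had estimates above 0 and 18 below (median 0.04). Of these 46, 6 had an unadjusted p under 0.05 in limma, against 19.0% of all genes tested. Of the 25 small-subunit genes 14 were above 0 and 11 below (median 0.01). Of these 25, 1 had an unadjusted p under 0.05, so both subunits lay below the share of all genes. Homologues of bacterial proteins (42 genes) had a median of 0.04, with 27 above 0 and 15 below, and the 26 tested proteins without a bacterial counterpart had a median of 0.05, with 14 above 0 and 12 below. The remaining 3 (mRpL55, mRpS18A and mRpS18B) were put in neither class. The homologue class thus holds mRpS18C but leaves out mRpS18A and mRpS18B, which are also relatives of bacterial S18. No difference between these classes was tested. The median level per kb of exon of the large subunit divided by that of the small subunit was 1.01, 1.11 and 1.06 in Mad knockdown and 0.988, 1.12 and 0.962 in control knockdown, which overlapped.

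The spread between libraries of the same group was examined for the 71 genes together. Each gene's log2 value was set against its own mean over the 6 libraries, and the median of these deviations over the 71 genes was 0.0585, -0.0633 and 0.0675 in Mad knockdown replicates 1 to 3 and -0.0916, -0.0251 and 0.0667 in control knockdown replicates 1 to 3. Of the 71 genes, 47, 18 and 53 were above their own mean in the Mad knockdown libraries and 21, 30 and 42 in the control knockdown libraries. Both groups thus held low and high libraries, with Mad knockdown replicate 2 and control knockdown replicate 1 the lowest. The summed normalized count of the 71 genes was 51735 ± 2332 in Mad knockdown and 50417 ± 2027 in control knockdown (SD, n = 3 each). This was 0.0474%, 0.0425% and 0.0485% of the counts of the Mad knockdown libraries and 0.0409%, 0.0442% and 0.0460% of those of the control knockdown libraries, which overlapped.

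**Figure D3:**
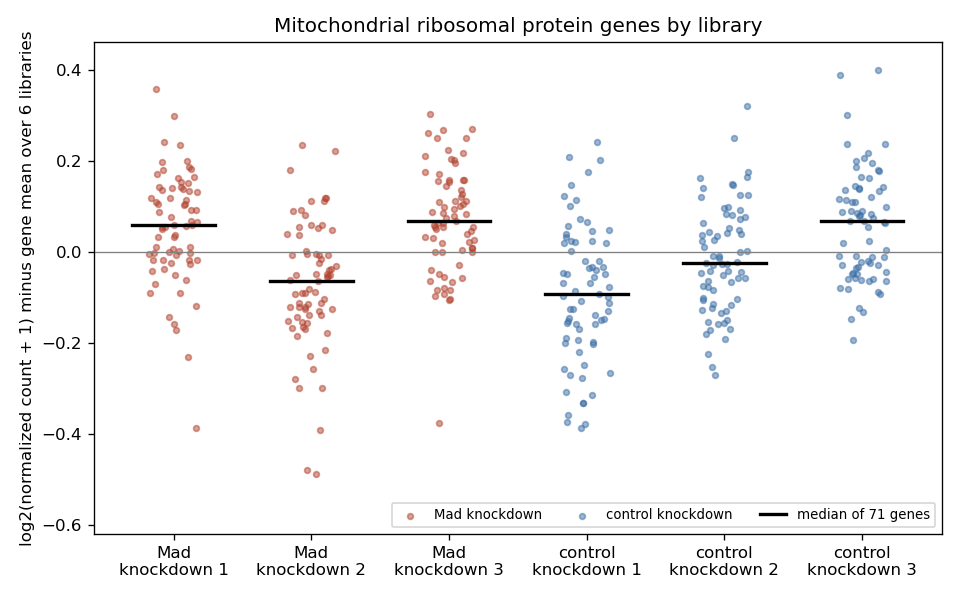
Log2(normalized count + 1) of each of the 71 genes minus its mean over the 6 libraries (y axis) in the 3 Mad knockdown and 3 control knockdown libraries (x axis); points are genes, spread sideways for visibility, and black lines the medians. The medians of the groups interleave, from -0.0633 to 0.0675 in Mad knockdown and from -0.0916 to 0.0667 in control knockdown.

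Over the 6 libraries 63 of the 71 genes correlated positively with the mean of the other 70, and 34 of them with a Pearson coefficient above 0.5 (median 0.495). These points share library, depth and size factor, and the coefficients describe 6 libraries only. The share of all genes with such coefficients was not counted, so whether the set is more alike than other genes was not tested. Among 8776 genes with a mean of at least 50, the 5 outside the set whose values over the 6 libraries were most like the mean of the set were Gpdh3, Su(var)3-9, CG11679, CG3999 and Nph, with Pearson coefficients of 0.992, 0.990, 0.985, 0.981 and 0.980. Gpdh3, for example, had normalized counts of 584, 518 and 597 in Mad knockdown and 517, 543 and 582 in control knockdown, with the same low libraries as the set.

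The proteins of the cytoplasmic ribosome gave another pattern in the same libraries. Of 83 genes tested all had estimates below 0, and at least 79 under every alternative setting, with a median log2 fold change of -0.20. However, none passed limma or edgeR, while DESeq2 called 26, against 9.69% of all genes. The median was -0.12 with the length and level trend removed and -0.15 under quantile normalization. At an unadjusted p under 0.05 there were 50 in limma, all lower in Mad knockdown, against 10.7% of all genes. The groups did not overlap for 68 of the 83, lower in Mad knockdown in each, against 13.0% of all genes. Cytoplasmic ribosomal protein genes made up 4.64% ± 0.154 of the counts in Mad knockdown and 5.14% ± 0.303 in control knockdown (SD, n = 3 each). The difference between the 2 ribosome gene sets was not tested.

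**Figure D4:**
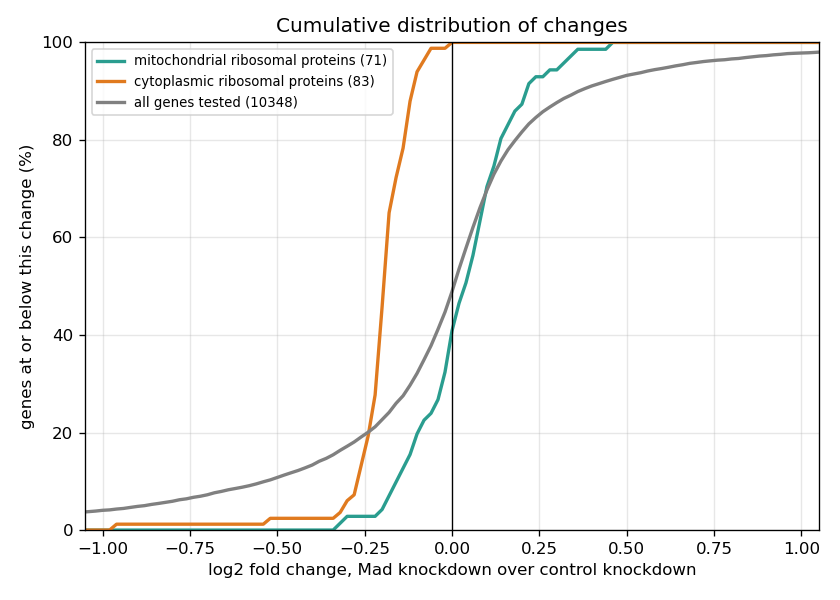
Share of genes (y axis, percent) at or below each log2 fold change of Mad knockdown over control knockdown (x axis), for the 71 mitochondrial ribosomal protein genes, 83 cytoplasmic ribosomal protein genes and all 10348 genes tested; genes beyond the axis are counted but lie outside it. The cytoplasmic curve lies left of 0 with a median of -0.20, and the mitochondrial curve crosses its middle at 0.04.

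Levels between genes were compared per kb of exon. The 71 genes had a median of 661 normalized counts per kb, with quartiles of 507 and 898, and the highest was 12.9 times the lowest. The median over all genes tested was 588 per kb, and that of the cytoplasmic ribosomal protein genes 69064 per kb. The highest were mRpL28 with 3000.2 per kb, mRpS9 with 2250.0, mRpS7 with 1901 and mRpL22 with 1612. Every library of mRpL28 lay above every library of mRpS9, and every library of mRpS9 above every one of mRpS7, while mRpS7 and mRpL22 overlapped. All 4 are homologues of bacterial proteins. mRpL28 had normalized counts of 3296, 3637 and 3664 in Mad knockdown and 3302, 3707 and 3456 in control knockdown (log2 fold change 0.02, SE 0.073). mRpS9 had 2905, 2828 and 3021 in Mad knockdown and 2953, 2912 and 2836 in control knockdown (log2 fold change 0.01, SE 0.057). mRpS7 had 1947, 1619.6 and 1778 in Mad knockdown and 1613, 1662 and 1840.4 in control knockdown (log2 fold change 0.06, SE 0.093). The groups overlapped in each.

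**Figure D5:**
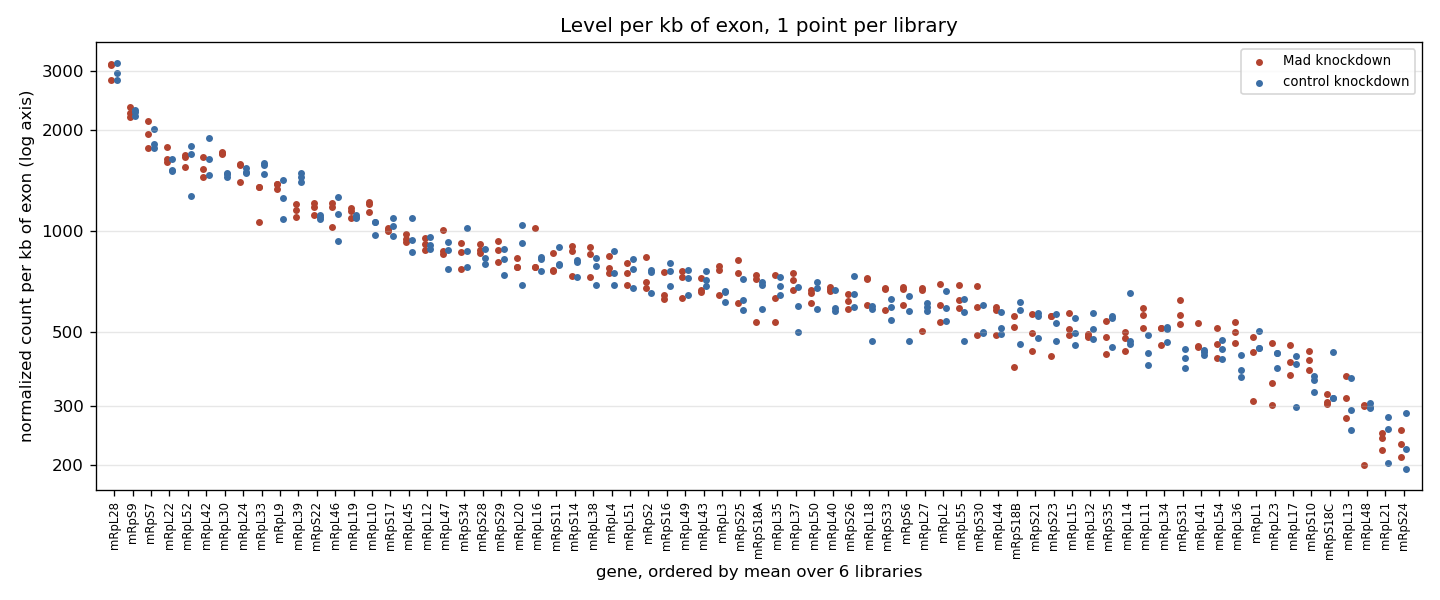
Normalized count per kb of exon (y axis, log scale) of the 71 genes, ordered by mean over the 6 libraries; each point is a library, with Mad knockdown left of control knockdown for each gene. mRpL28 is highest at 3000.2 and mRpS24 lowest at 233, and the groups lie over each other for most genes.

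The lowest levels were those of mRpS24 (233 per kb), mRpL21 (242), mRpL48 (284) and mRpL13 (312). Their normalized counts overlapped between the groups. mRpS24 had 152, 127 and 139 in Mad knockdown and 134, 116 and 171 in control knockdown. mRpL21 had 422, 377 and 409.8 in Mad knockdown and 343, 436 and 470.3 in control knockdown, and mRpL13 had 212, 186 and 247 in Mad knockdown and 171, 196 and 244 in control knockdown. Several of these genes share exon bases with a neighbour, mRpS24 over 55.3% of its exon, mRpL13 over 35.2%, mRpS9 over 25.1% and mRpL48 over 20.8%. Per kb of unshared exon mRpS24 had 523, mRpL13 481 and mRpL48 358, so mRpL21, which shares none, was then the lowest at 242. On that scale mRpL28 had 3044 and mRpS9 3005, nearly level.

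Sharing of exon bases bears on what could be counted. Among protein-coding genes with every exon base shared with another gene, 391 of 399 (98.0%) were at 0 in all 6 libraries, against 955 of 9126 (10.5%) of those that share none. mRpL53 (chromosome 2R, 13954195 to 13955664) shares all its exon bases with AGO1 and CG33155, so its 0 does not show that the gene is silent. Of the 71 tested genes 42 (59.2%) share some exon bases with another gene, against 37.9% of all genes tested. The strand setting of the authors' counting is not given in the sources used here, so such counts are uncertain. The median log2 fold change was 0.03 among these 42 genes and 0.05 among the 29 that share none.

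The genes are short and closely packed. Their median exon length was 783 bases, against 2021 over all genes tested, and the median of their largest exon number was 2, against 4. They lie on chromosomes X (11 genes), 2L (12), 2R (12), 3L (16) and 3R (21). For 51 of the 71 (71.8%) the start of a protein-coding gene on the other strand lay within 500 bases and pointed away, against 28.6% of all genes tested. Examples are mRpL18 with Taz at 20 bases, mRpL23 with CG9004 at 24, mRpL11 with HtrA2 at 126 and mRpS7 with Cdk1 at 400. In no case was that nearest gene another of the mitochondrial ribosomal protein genes.

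Other genes of mitochondrial gene expression likewise had no call in limma or edgeR. A pair of mitochondrial ribosomal protein genes carry older fly names. tko, the S12 homologue known for seizure-prone mutants, had normalized counts of 501, 535 and 589 in Mad knockdown and 510.1, 570.0 and 561 in control knockdown (log2 fold change -0.02, adjusted p 0.961 in limma). bonsai, the S15 homologue, had 786, 671 and 744 in Mad knockdown and 693, 727 and 737 in control knockdown (log2 fold change 0.03, adjusted p 0.916). The groups overlapped in both.

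Of 10 translation factors 5 had estimates above 0 and 5 below (median -0.01), and none had an unadjusted p under 0.05. Of 15 mitochondrial aminoacyl-tRNA synthetases, which charge transfer RNAs with amino acids, 11 were above 0 and 4 below (median 0.05). Among them 1, IleRS-m, had an unadjusted p under 0.05, against 19.0% of all genes. Of 10 tested genes of mitochondrial DNA maintenance and transcription, out of 12 in the table, 6 were above 0 and 4 below (median 0.01), and none had an unadjusted p under 0.05.

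The RNAs that the mitochondrial ribosome reads are encoded in mitochondrial DNA. Of 13 such mRNAs 4 had an unadjusted p under 0.05 in limma, against 19.0% of all genes. Among the 13, 2 had estimates above 0 and 11 below, with a median log2 fold change of -0.14. This split depended on the setting, with 6 above 0 and 7 below under quantile normalization (median -0.06) and 5 above and 8 below with the length and level trend removed (median -0.02). The median also ran from -0.21 without Mad knockdown replicate 2 to -0.10 without Mad knockdown replicate 3. The groups did not overlap for 5 of the 13, against 24.6% of all genes. Of these, ATP6 was higher in Mad knockdown, against 11.6% of all genes, and ND2, ND4L, ND6 and COX3 were lower, against 13.0%. ATP6, a subunit of the ATP synthase, had 298703, 335568 and 304879.8 in Mad knockdown and 272869, 231023 and 221889 in control knockdown (log2 fold change 0.38, SE 0.123, adjusted p 0.173 in limma). ND6, a subunit of complex I, had 244, 282 and 239 in Mad knockdown and 445, 329 and 355 in control knockdown (log2 fold change -0.55, SE 0.150, adjusted p 0.113). ND4L, another subunit of complex I, had 143, 207 and 177 in Mad knockdown and 290.4, 307 and 222 in control knockdown (log2 fold change -0.64, SE 0.195, adjusted p 0.152). ND2, also of complex I, had 1877, 2023 and 1651 in Mad knockdown and 4300.1, 2592 and 2138 in control knockdown (log2 fold change -0.64, SE 0.248, adjusted p 0.231). For COX3, of cytochrome c oxidase, the log2 fold change was -0.28 (SE 0.149, adjusted p 0.380). The ribosomal RNA srRNA of the small subunit had 9719.5, 12767 and 9636 in Mad knockdown and 16858, 14753 and 12396 in control knockdown (log2 fold change -0.46, SE 0.151, adjusted p 0.177), and the groups overlapped. The large-subunit lrRNA had 4937757, 5486365 and 4901319 in Mad knockdown and 6274090.2, 6099532 and 5862031 in control knockdown, with every Mad knockdown library lower. Its means were 5108480 ± 327765 in Mad knockdown and 6078551 ± 206829 in control knockdown (SD, n = 3 each). In limma the log2 fold change was -0.25 (SE 0.310, adjusted p 0.725). That SE is drawn toward the variance of genes at a like level, so it does not reflect these values alone. The adjusted p was 0.510 in edgeR and 0.0294 in DESeq2. In poly(A)-selected libraries the levels of the mitochondrial RNAs also depend on their tails, which were not measured. DESeq2 called 6 of these mitochondrially encoded genes, ND2, ND6, COX3, ATP6, lrRNA and srRNA, against 9.69% of all genes.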

How the data were processed

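Poly(A)-selected RNA of 3 Mad knockdown and 3 control knockdown samples was sequenced in a PE50 run, per the labels' protocols. The deposited signal is a table of normalized counts per gene, 1 column for each library, made by the authors without pooling replicates. All values above 0 were whole multiples of 1 step per column within a tolerance of 0.001, equal to the inverse of a median-of-ratios size factor, and were taken as gene counts divided by 1 factor per library. The factors ran from 0.820 to 1.10. Genome build dm6 is given per the submitters' processing notes. The aligner, counter, annotation and strand setting are not given in the sources used here. Of the gene identifiers, 17710 matched the Ensembl 115 annotation of BDGP6.54, from which positions, exons and overlaps were taken, and 97 did not.

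The test took log2(normalized count + 1) of 10348 genes that reached 10 in 3 or more of 6 libraries, with limma 3.58.1 (R 4.3.3, lmFit and eBayes with a trend, two-sided, no covariate), Benjamini-Hochberg adjusted over all of them and called under 0.05. Fold changes on this scale understate the change of low genes. Alternatives tried were a pseudocount of 0.5 or 5, a filter at a mean of 50 or none, TMM, 75th percentile scaling, quantile normalization, eBayes without a trend or robust, edgeR 4.0.16 and DESeq2 1.42.0 on recovered counts, the replicate number as a block, removal of the length and level trend, other thresholds and each library left out. The test was checked on simulated data.

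The genes and lists were chosen with earlier results of these data known. The names of the genes outside the set came from lists written from general knowledge. The rule for naming took Mad, genes called, the 6 highest and 6 lowest estimates, the 4 highest and 4 lowest levels per kb, the S18, stalk, mRpL1, mRpS29, mRpL44 and mRpL45 genes, tko and bonsai, and the 5 genes outside the set most like its mean. Others were named after their values were seen. Replicates are separate pooled samples in the labels, and p-values measure the spread between them. In limma that spread is drawn toward the spread of genes at a like level.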

Additional observations from a re-analysis of the deposited data

How the results depend on the processing

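The median log2 fold change of the 71 genes was 0.039 in the main run. Under every alternative it moved by less than the SD between libraries of the median deviation of the 71 genes. That SD was 0.0731 in Mad knockdown and 0.0795 in control knockdown, wider than the median itself, so this is a loose bound. The median ran from -0.0041 without Mad knockdown replicate 1 (34 of 71 above 0) to 0.098 with the length and level trend removed (55 above 0). Over all genes the medians in these 2 settings were 0.0045 and 0.035. The mitochondrial ribosomal protein genes called numbered 0 under all alternatives except DESeq2 (2) and an unadjusted p under 0.05 (7), and 0 to 0 with each library left out. Calls among the other mitochondrial lists numbered 6 in DESeq2 and 0 otherwise. Of all genes, 138 were called without a trend, 1000 in DESeq2, 117 with the replicate block, 49 at an adjusted p under 0.01, and 43 to 193 with a library left out, against 268. Leaving out control knockdown replicate 2 gave 43. The log2 fold change of Mad lost its call without a trend (-0.57, adjusted p 0.0981), in edgeR (-0.55, 0.0516) and with the replicate block (-0.57, 0.0787), and ran from -0.66 to -0.47 with a library left out, where the call held only without Mad knockdown replicate 2; the cause was not tested. The genes' deviations from their group means correlated between same-numbered libraries at -0.14, -0.066 and 0.037 for replicates 1 to 3. With 3 libraries a group, these values cannot settle whether the replicate numbers pair the samples. No mitochondrial ribosomal protein gene was called with the block. With 3 libraries a group, the precision of each gene is set by its own interval.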
